A study of Homo sapiens with 34 samples.

Results

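The zinc finger genes of chromosome 19 were taken as the RefSeq protein-coding genes on that chromosome (GRCh38.p14) whose symbol begins with ZNF followed by a number. ZNF470-DT and joint entries such as ZNF816-ZNF321P, ZNF765-ZNF761 and ZNF559-ZNF177 meet this rule and were counted as separate members. They numbered 250 of 19970 protein-coding genes on the autosomes and X. Chromosome 19 carried 1201 other protein-coding genes, and 267 genes named in the same way lay on other chromosomes. The members had a median length of 23254.5 bp, from 2469 to 487995 bp.

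The series asked how β-catenin and TCF factors bear on the loss of guanylate cyclase C ligands in colorectal cancer, and it holds 34 samples, of which 24 are RNA-seq, 8 are ChIP-seq and 2 are input DNA. The ChIP-seq peak lists were used here. They came from DLD1, an established human colorectal adenocarcinoma line, in a derivative in which doxycycline switches on a dominant negative TCF7L2. All ChIP samples, uninduced ones included, carried that transgene. Uninduced cells received no treatment, and induced cells received 1 µg/mL doxycycline for 24 h. Antibodies to H3K27ac and to RNA polymerase II (Pol II) were used on 2 samples for each condition, and 1 peak list stands for both samples of a group. The spread between replicates could therefore not be measured, doxycycline and the transgene cannot be told apart, and every difference between conditions below is a difference between 2 lists, with no test. All 6 epithelial marker genes (EPCAM, KRT8, KRT18, CDH1, CDX2 and VIL1) had regions of both marks in both conditions. Among 6 markers of other lineages, ALB and MYH7 had none, and SYP, PTPRC, COL1A1 and PECAM1 had regions of both marks.

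Most ZNF genes encode proteins with tandem zinc fingers that read DNA, and many also carry a KRAB domain. The KRAB domain binds the corepressor TRIM28, which brings the histone methyltransferase SETDB1 and heterochromatin proteins to the bound site, often a retrotransposon. The genes arose by repeated duplication and lie in clusters of close relatives. H3K27ac is an acetylation of histone H3 found at active promoters and enhancers, and Pol II transcribes protein-coding genes.

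The promoters of 5 members show how alike, or unlike, marked and unmarked starts can read. Each line gives the 200 bases upstream of the RefSeq start in GRCh38.p14, from RefSeq, written 5′ to 3′ on the gene's strand, with CG dinucleotides in capitals. ZNF91, a repressor of SVA retrotransposons, had H3K27ac and Pol II at its start in both conditions, and ZNF208 lies in the same cluster and had no region in any list. Aligned end to end, their upstream sequences were identical at 177 of 207 alignment positions, 85.5%. ZNF91 and ZNF429, another unmarked gene of the cluster, were identical at 49.6%. ZNF566 is a marked member of another cluster, and it was identical to ZNF582 and to ZNF132 at 50.2% each. The alignments to ZNF429, ZNF582 and ZNF132 held 48, 30 and 34 gaps, against 14 for ZNF208. The identity that unrelated sequences reach in such alignments was not computed, so values near 50% are not read as likeness. ZNF582 and ZNF132 had no region in any list, although their sequences hold 22 and 16 CG dinucleotides against 18 for ZNF566 and 7 for ZNF91. These members were chosen for display after their values were seen.
ZNF91, marked, minus strand, chr19:23395472-23395671: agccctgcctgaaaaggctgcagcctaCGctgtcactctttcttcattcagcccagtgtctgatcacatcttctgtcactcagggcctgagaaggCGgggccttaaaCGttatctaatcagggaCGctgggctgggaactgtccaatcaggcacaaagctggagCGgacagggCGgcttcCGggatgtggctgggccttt
ZNF208, no region, minus strand, chr19:22010944-22011143: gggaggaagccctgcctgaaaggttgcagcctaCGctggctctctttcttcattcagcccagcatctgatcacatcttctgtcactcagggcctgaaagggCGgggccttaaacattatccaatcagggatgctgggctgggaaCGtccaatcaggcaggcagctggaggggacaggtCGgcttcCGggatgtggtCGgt
ZNF566, marked, minus strand, chr19:36489562-36489761: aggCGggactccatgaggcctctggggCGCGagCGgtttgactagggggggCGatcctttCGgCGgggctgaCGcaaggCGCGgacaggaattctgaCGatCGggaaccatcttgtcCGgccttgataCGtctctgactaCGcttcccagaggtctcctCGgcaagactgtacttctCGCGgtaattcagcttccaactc
ZNF582, no region, minus strand, chr19:56393535-56393734: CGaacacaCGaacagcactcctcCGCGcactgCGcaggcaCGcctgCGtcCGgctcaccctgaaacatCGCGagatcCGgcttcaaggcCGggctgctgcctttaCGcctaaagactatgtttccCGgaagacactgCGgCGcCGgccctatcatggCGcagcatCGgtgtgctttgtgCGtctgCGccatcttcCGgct
ZNF132, no region, minus strand, chr19:58440154-58440353: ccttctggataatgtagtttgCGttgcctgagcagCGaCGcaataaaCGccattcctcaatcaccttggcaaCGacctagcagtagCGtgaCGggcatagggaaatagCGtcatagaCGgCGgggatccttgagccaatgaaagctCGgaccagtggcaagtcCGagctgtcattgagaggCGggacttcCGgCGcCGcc

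Chromosome 19 ZNF genes were split between genes marked in every list and genes marked in none. A region of all 4 lists lay over the gene or within 1 kb of it in 162 members, and 77 members had no region in any list. The other 11 members had an intermediate state. ZNF536, ZNF229, ZNF541, ZNF350, ZNF615 and ZNF773 had H3K27ac in both conditions and no Pol II. ZNF614, ZNF439, ZNF813, ZNF610 and ZNF671 differed between the conditions. By mark, H3K27ac was listed at 170 members (68.0%) in each condition. Pol II was listed at 164 (65.6%) uninduced and 163 (65.2%) induced. Over all protein-coding genes, H3K27ac was listed at 75.7% uninduced and 75.3% induced, and Pol II at 73.1% and 71.5%. Uninduced, 162 of 250 members had both marks and 78 had neither, beside 14084 and 4344 of 19970 genes. The marks had the same state at 96.0% of members uninduced and 97.2% induced. All genes had 92.3% and 91.6%, and ZNF genes of other chromosomes 97.0% and 96.6%. This sharing of state was therefore not particular to the members.

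**Figure D1:**
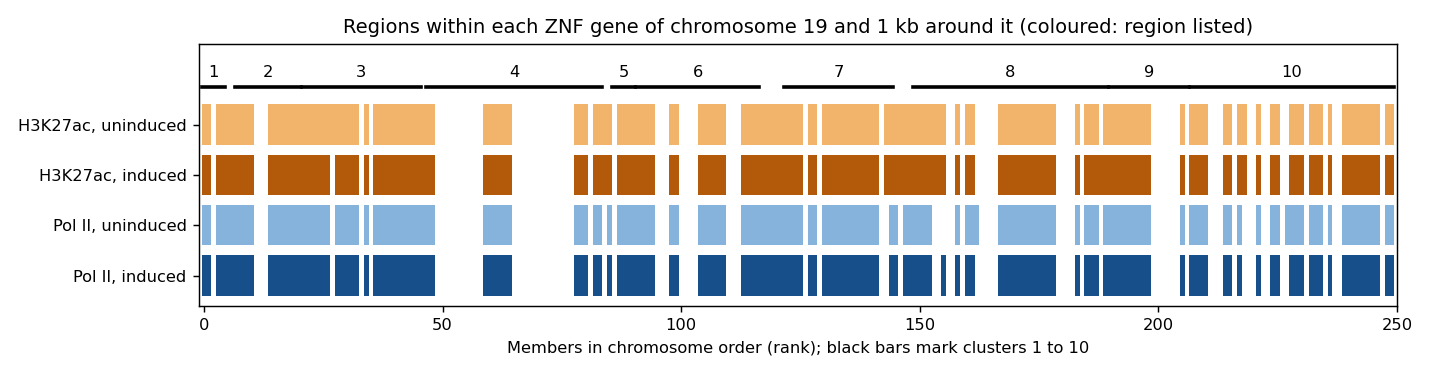
Each of the 250 members is a column in chromosome order, and each row is 1 of the 4 lists (H3K27ac and Pol II, uninduced and induced); a coloured cell marks a region within the gene or 1 kb around it, and black bars mark clusters 1 to 10. The rows nearly repeat each other, and the widest white gap, of 13 members, lies in cluster 4.

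Splitting the chromosome where neighbouring members lay over 500 kb apart gave 10 clusters of at least 5 members, numbered from the end of the short arm, and 14 members stood outside them. All 14 of those had H3K27ac in both conditions, and 12 had Pol II in both. The clusters differed widely in how many members were marked. In cluster 3 (ZNF653 to ZNF791), 23 of 25 members had H3K27ac uninduced and 22 had it induced. Cluster 7 (ZNF575 to ZNF180) had 20 of 23 marked in both conditions, and cluster 2 (ZNF414 to ZNF846) had 11 of 14. The small clusters 1 (ZNF554 to ZNF77) and 5 (ZNF302 to ZNF792) each had 4 of 5.

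At the other end of the range was cluster 4 (ZNF101 to ZNF254), where 13 of 37 members had H3K27ac and 13 had Pol II in each condition. Cluster 9 (ZNF628 to ZNF835) had 10 of 17 and cluster 6 (ZNF565 to ZNF573) had 16 of 26, the same counts for both marks and both conditions. Cluster 10 (ZNF264 to ZNF446) had H3K27ac at 28 of 43 in each condition, with Pol II at 28 uninduced and 27 induced. Cluster 8 (ZNF175 to ZNF331) had H3K27ac at 27 of 41 uninduced and 28 induced, and Pol II at 25 in each. No cluster differed between conditions by more than 1 member for either mark on this count.

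**Figure D2:**
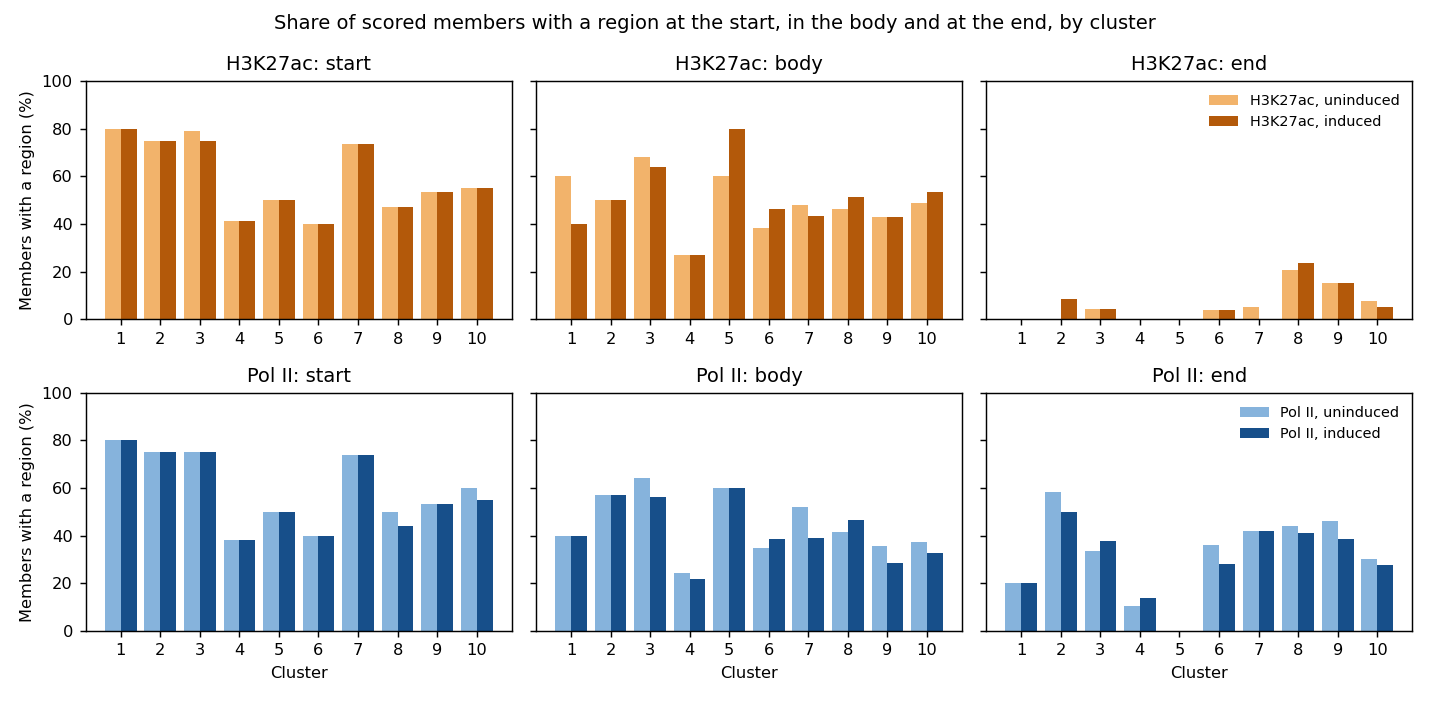
Bars give, for clusters 1 to 10, the percent of scored members with an H3K27ac (top) or Pol II (bottom) region at the start, in the body or at the end; light bars are uninduced and dark bars induced, from 1 list each and so with no error bars. Uninduced, clusters 4 and 6 have H3K27ac at 41.4% and 40.0% of starts, against at least 73.7% in clusters 1, 2, 3 and 7, and H3K27ac at gene ends is most frequent in cluster 8.

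Some of the unmarked members lay next to one another in long runs. The 77 unmarked members formed 30 runs, of which 16 held a single member and 3 held 5 or more, together 29 members. The longest, 13 members from ZNF429 to ZNF730 (chr19:21505602-23147221), spanned 1.64 Mb with no other protein-coding gene and without a single region of any list. It holds ZNF429, ZNF100, ZNF43, ZNF208, ZNF257, ZNF676, ZNF729, ZNF98, ZNF492, ZNF99, ZNF723, ZNF728 and ZNF730. A run of 10 members from ZNF506 to ZNF85 (chr19:19792711-20950697) spanned 1.16 Mb with 1 H3K27ac region in each condition, lying outside the genes, and no Pol II region. It includes ZNF93, a repressor of L1 retrotransposons. A run of 6 from ZNF582 to ZNF470 (chr19:56382751-56582894) had no region in any list. How reads matching several near-identical copies were handled is not stated in the labels, and the part of sequence likeness between copies in these gaps was not tested.

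Between the first pair of gaps, 6 neighbouring members of cluster 4 (ZNF430, ZNF714, ZNF431, ZNF708, ZNF738 and ZNF493) had regions in all 4 lists. The 162 members marked in all lists formed 46 runs, of which 11 held 5 or more members, together 86. The longest held 12 members each. One ran from ZNF230 to ZNF112 in cluster 7 (chr19:44002957-44367217, 0.364 Mb), with 19 H3K27ac regions uninduced and 17 induced, and 34 and 31 Pol II regions. The other ran from ZNF808 to ZNF160 in cluster 8 (chr19:52527668-53103422, 0.576 Mb), with 21 and 28 H3K27ac regions and 50 and 53 Pol II regions.

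Starts were scored for the 219 members whose strand RefSeq's promoter table gives, as the gene's 5′ end with 1 kb on either side. H3K27ac lay at 124 starts uninduced (56.6%, Wilson 95% interval 50.0 to 63.0%, counting error only) and at 123 induced (56.2%). Pol II lay at 125 uninduced (57.1%) and 121 induced (55.3%). The corresponding shares over all protein-coding genes were 64.2% and 64.1% for H3K27ac, and 63.9% and 62.9% for Pol II. ZNF genes of other chromosomes had H3K27ac at 77.5% and Pol II at 79.8% of starts in each condition.

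H3K27ac and Pol II were mostly listed at the same starts. Uninduced, 119 members had both, 89 had neither, 5 had H3K27ac alone (ZNF439, ZNF726, ZNF575, ZNF614 and ZNF773) and 6 had Pol II alone (ZNF225, ZNF577, ZNF320, ZNF749, ZNF671 and ZNF814). Induced, the counts were 118, 93, 5 and 3. The 2 marks thus had the same state at 95.0% of member starts uninduced and 96.4% induced, beside 94.8% of all starts in both conditions. Of the 219 scored members, 19 had H3K27ac at another RefSeq start and not at the scored 5′ end, the same 19 in both conditions. Several RefSeq starts were given for 36 of the 219. Counting every RefSeq start gave H3K27ac at 142 members uninduced and 141 induced, and Pol II at 141 and 137. These counts leave out ZNF254 for H3K27ac in both conditions and for Pol II induced, since it was marked at its 5′ end and not at the RefSeq starts given for it.

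Enrichment at marked starts varied several-fold among members within each list. The authors' fold enrichment describes a region against the caller's local background in its own list. Values of both lists are printed side by side, and no change is read from them. Over the 9741 genes with a Pol II summit at the start in both lists, the median −log10 q was itself lower in the induced list, at 152.5 against 209.4. For 120 members it was 138.6 against 180.2. The H3K27ac medians were 160.6 induced and 169.1 uninduced over 9849 genes, and 127.9 and 140.7 over 121 members. In cluster 4, H3K27ac start regions uninduced ranged from 6.06-fold at ZNF726 to 28.9-fold at ZNF91, with a median of 15.3 over 12 members. In cluster 3, they ranged from 4.39 to 39.6 with a median of 23.6 over 19 members. ZNF700, in cluster 3, had the highest −log10 q of that cluster at its start, 323.2 uninduced and 312.7 induced, in a region at chr19:11923359-11926728 uninduced. ZNF700 lies inside the span of ZNF69, so the same region also counts as a body region of ZNF69.

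The ZNF91 start carried an H3K27ac region of 6191 bp uninduced (−log10 q 256.1). Induced, the start region measured 5163 bp (227.4), and a separate region of 1226 bp (43.0) lay next to it at chr19:23390036-23391261. Its Pol II start regions measured 2085 bp and 2363 bp, with −log10 q of 265.1 and 261.1. Pol II was also listed deep in the ZNF91 body, 63.0 to 73.8 kb from the start uninduced, where −log10 q reached 25.4 uninduced and 18.0 induced. The start regions of the other members leading their clusters in H3K27ac had −log10 q values from 168.6 (ZNF566) to 266.7 (ZNF460) uninduced.

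Gene bodies, the part over 1 kb from both ends in the 247 members of at least 4 kb, had H3K27ac at 119 members uninduced (48.2%) and 123 induced (49.8%). Pol II lay in the body of 105 (42.5%) and 99 (40.1%). Over all genes the H3K27ac shares were 71.1% and 70.7%, and the Pol II shares 56.2% and 51.5%. Many H3K27ac body calls were regions reaching in from outside it: a region wholly within the body was listed at 48 members uninduced (19.4%) and 50 induced (20.2%), beside 48.0% and 47.3% of all genes. Requiring in addition that it lay over 1 kb from every start in RefSeq's promoter table left 27 and 29 members (10.9% and 11.7%). The shares were 45.5% and 44.8% of all genes and 28.6% and 28.2% of ZNF genes elsewhere. That table covers 219 of 250 members and 15812 of all 19970 genes, so regions at starts of the other genes could remain. The median length of the genes scored for bodies was 30717.5 bp over all genes and 25091 bp over ZNF genes elsewhere. For Pol II, 80 and 81 members had a region wholly within the body (32.4% and 32.8%), beside 43.0% and 39.5% of all genes. Away from the starts of the promoter table, 68 and 66 members had one (27.5% and 26.7%). The shares were 40.2% and 36.4% of all genes and 39.7% of ZNF genes elsewhere in each condition.

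The strongest H3K27ac regions wholly inside a member's body uninduced were those of ZNF69, the readthrough gene ZNF816-ZNF321P, ZNF574 and ZNF799. The ZNF816-ZNF321P region covered 12285 bp uninduced (chr19:52934478-52946762, −log10 q 262.1) and 12714 bp induced (208.6). Pol II lay within it in both lists, at −log10 q 259.3 and 168.7. ZNF574 had H3K27ac 7.96 kb from its outermost start and ZNF799 14.3 kb from it, with Pol II beside both. Both genes belong to the 19 members marked only at another RefSeq start. ZNF565 likewise had its strongest H3K27ac region 30.6 kb into the gene, at −log10 q 165.7 in uninduced cells and 106.2 in induced cells.

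Ends, the 3′ end with 1 kb on either side, were scored in 217 members. H3K27ac was listed there at 16 members uninduced (7.37%, interval 4.59 to 11.6%) and 17 induced (7.83%), beside 15.2% and 14.9% of all genes and 23.5% and 23.0% of other chromosome 19 genes. ZNF genes elsewhere had it at 11.2% (interval 7.65 to 16.1%) and 10.7% of ends. The intervals of members and of these genes overlap, hold counting error only and are no test. Pol II lay at 76 ends uninduced (35.0%, interval 29.0 to 41.6%) and 71 induced (32.7%). All genes had Pol II at 33.9% and 30.5% of ends, and other chromosome 19 genes at 54.8% and 52.0%. ZNF genes elsewhere had it at 46.3% and 39.3%. Each member counted had a region at its end that was clear of the start window. Members with another gene's start, as far as the promoter table gives it, within 2 kb of the end were then left out. This left 10 and 11 of 206 with H3K27ac and 70 and 65 with Pol II.

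Pol II at the end went with Pol II at the start. Of 123 members with Pol II at the start uninduced, 69 (56.1%) also had it at the end, against 7 of 94 members without it (7.45%). Induced, the counts were 63 of 119 (52.9%) and 8 of 98 (8.16%). Over all protein-coding genes the shares were 45.3% and 11.4% uninduced, and 41.1% and 10.5% induced. Among other chromosome 19 genes they were 72.7% and 19.3% uninduced, and among ZNF genes elsewhere 52.9% and 20.5%. H3K27ac at the end was as frequent with as without H3K27ac at the start, at 9 of 122 members (7.38%) and 7 of 95 (7.37%) uninduced. Over all genes those shares were 17.6% and 10.3%, and among ZNF genes elsewhere 10.9% and 12.2%.

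By cluster, Pol II marked ends in 7 of 12 members of cluster 2 uninduced and 6 induced, and in 15 and 14 of 34 in cluster 8. In cluster 4 only 3 of 29 ends were marked uninduced and 4 induced, and in cluster 5 none of 4. H3K27ac at ends was found at 7 of 34 members of cluster 8 uninduced and 8 induced, among them ZNF766 and ZNF701. Among Pol II regions that reached an end window and not the start window, those of ZNF581, ZNF544, ZNF324 and ZNF628 had the highest −log10 q uninduced. All 4 genes have another gene's start within 2 kb of the end, and the part of that start in these regions was not tested. The ZNF581 region (chr19:55636721-55644700) had its summit in the body, 6.14 kb from the start, and its induced counterpart did not reach the end window. At ZNF544 the end region reached −log10 q 245.7 uninduced and 168.7 induced, and H3K27ac lay beside it at 218.1 and 178.3. ZNF544 also carried a long body region of Pol II, 12966 bp uninduced and 13424 bp induced.

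**Figure D3:**
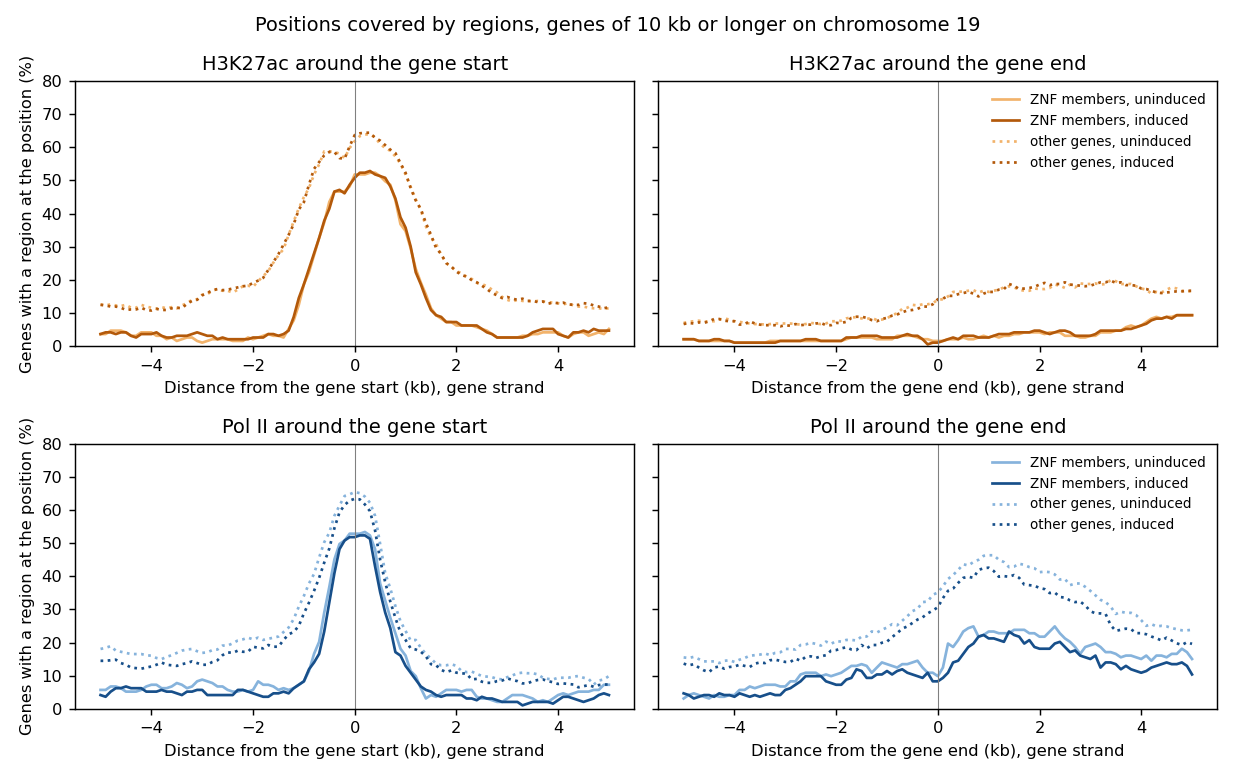
Lines give the percent of genes with a region at each distance (kb, along the gene's strand) from the start (left) and end (right), for H3K27ac (top) and Pol II (bottom); solid lines are 193 members and dotted lines 587 other chromosome 19 genes, all at least 10 kb long. At the member start Pol II lies at 52.9% uninduced and 51.8% induced, and it dips to 9.85% and 8.29% at the gene end before reaching 23.3% and 21.2% at 1 kb past it.

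Averaged over the 193 members of at least 10 kb with a known strand, the start peak was narrow. H3K27ac covered 51.8% of members at the start uninduced and 6.22% at 2 kb downstream. In the 587 other chromosome 19 genes it covered 61.8% and 22.7% at those positions. Pol II covered 14.0% of members uninduced at 0.5 kb before the end and 9.85% at the end itself. At 0.5 kb past the end it covered 23.3% uninduced and 16.6% induced, beside 43.6% and 39.5% of the other genes. The profile of Pol II around the gene end thus lay below that of the other genes in both conditions.

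Most members kept their listed state on induction: H3K27ac was listed in both conditions at 169 members and Pol II at 162. Calls in a single condition were 1 uninduced and 1 induced for H3K27ac, and 2 uninduced and 1 induced for Pol II. Over all 19970 genes such calls made up 1.05% (H3K27ac uninduced only), 0.706% (H3K27ac induced only), 2.04% (Pol II uninduced only) and 0.431% (Pol II induced only). All 5 members rested on weak regions. ZNF439 had H3K27ac uninduced alone, at a −log10 q of 9.08 and 4.39-fold enrichment. ZNF813 had it induced alone, at 6.23 and 3.90-fold. Pol II was listed at ZNF610 (−log10 q 2.67) and ZNF671 (2.45) uninduced alone, and at ZNF614 (2.48) induced alone.

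The share of each gene's length covered by regions was compared for members of at least 2 kb with coverage in at least 1 condition. The median Pol II coverage of 163 members was 7.01% uninduced and 5.90% induced, and the median difference, induced minus uninduced, was −1.05 percentage points. It was −0.51 points over all 14087 genes scored, whose median coverage was lower to begin with, at 4.95% uninduced and 3.91% induced. Other chromosome 19 genes had a median difference of −1.87 points, with medians of 15.2% and 12.6%. ZNF genes elsewhere had −0.69 points, with medians of 7.14% and 6.41%. Coverage was lower in the induced list in 125 members (76.7%), beside 77.9% of all genes, higher in 37 and equal in 1. The induced Pol II list as a whole held 50665 regions and the uninduced list 57247. With both lists cut to the same number of regions, the members' median difference was −0.72 points, with 120 members lower and 41 higher. The value over all genes with these cut lists was not recorded.

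A difference over 25 points from the median of all genes was called. For Pol II, 2 members were called lower and none higher, beside 0.816% of all genes called lower and 0.0284% higher. Pol II covered 75.9% of ZNF296 uninduced and 26.5% induced. Uninduced, 4 Pol II regions overlapped the gene, and induced, only the region at its start did. The uninduced regions away from the start were weak, at −log10 q 6.89, 3.51 and 2.96. The start region had 297.5 uninduced and 247.3 induced. ZNF296 is 4979 bp long and its surroundings overlap CLASRP and GEMIN7. It was named after its values were seen, since the naming rule asked for 5 kb. ZNF587 was covered over 76.0% uninduced and 42.3% induced, and it overlaps no other protein-coding gene within 1 kb. Its start region reached −log10 q 241.0 uninduced and 183.5 induced, and the Pol II regions that covered less length lay in its body and at its end. ZNF324 stood just outside the threshold, at 95.2% and 70.6%.

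**Figure D4:**
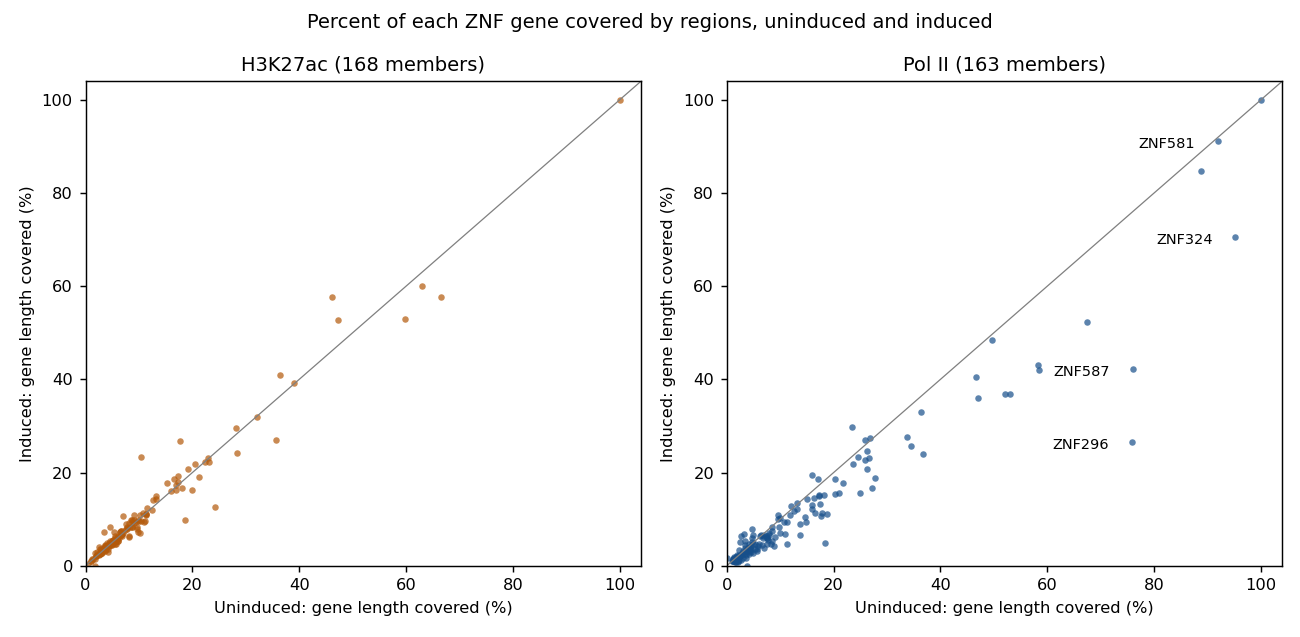
Each point is a member, with the percent of its length covered by regions uninduced (x axis) and induced (y axis), for H3K27ac (left, 168 members) and Pol II (right, 163 members); the line marks equal coverage. H3K27ac points lie on both sides of the line, and most Pol II points lie below it, with ZNF296 and ZNF587 farthest from it.

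The next largest Pol II differences downward among members of at least 5 kb were at ZNF358 (58.5% to 42.0%), ZNF526 (53.1% to 36.9%) and ZNF552 (52.1% to 36.8%). Upward differences among members of at least 5 kb were smaller, led by ZNF468 (2.59% to 6.47%), ZNF230 (3.20% to 6.78%), ZNF865 (16.0% to 19.6%), ZNF555 (4.75% to 7.87%) and ZNF260 (2.43% to 5.14%). The shorter ZNF579, of 4075 bp, went from 23.4% to 29.7%, above all of these, and was named after its values were seen. ZNF581 was covered over 92.0% and 91.1% of its length by Pol II and over 63.0% and 60.0% by H3K27ac, and its surroundings overlap ZNF580. H3K27ac coverage of 168 members had a median of 5.88% uninduced and 6.08% induced, with a median difference of 0.044 points against −0.083 over all genes. It was lower in 77 members (45.8%), beside 55.9% of all genes, higher in 89 and equal in 2. Other chromosome 19 genes were near the members, with 48.7% lower and a median difference of 0. ZNF genes elsewhere had 54.2% lower and a median difference of −0.039 points. None was called in either direction, beside 0.0342% of all genes called lower and 0.0616% higher.

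The 300-base promoter windows, from 250 bases before to 50 after a RefSeq start, were read for all 219 members with an entry. Member windows held a median of 20 CG dinucleotides, beside 22 over 15812 genes. Members with H3K27ac at the start uninduced had a median of 22 and members without it 18. Over all genes those medians were 26 and 7. Fewer than 10 CG dinucleotides were found in 3 of 124 marked members (2.42%) and 13 of 95 unmarked ones (13.7%), beside 55.8% of all genes without H3K27ac at the start. Windows of members without H3K27ac at the start ranged from 2 to 49 CG dinucleotides, and those of members with it from 8 to 40. The window lay at the scored 5′ end in 114 marked and 68 unmarked members, and at another RefSeq start in the rest. Over those 114 and 68 alone the medians were 22 and 17, beside 27 and 7 over all genes treated alike. The ranges were 8 to 40 and 2 to 32. Of the 68, 13 (19.1%) held fewer than 10, beside 58.4% of all genes without H3K27ac at the start treated alike.

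**Figure D5:**
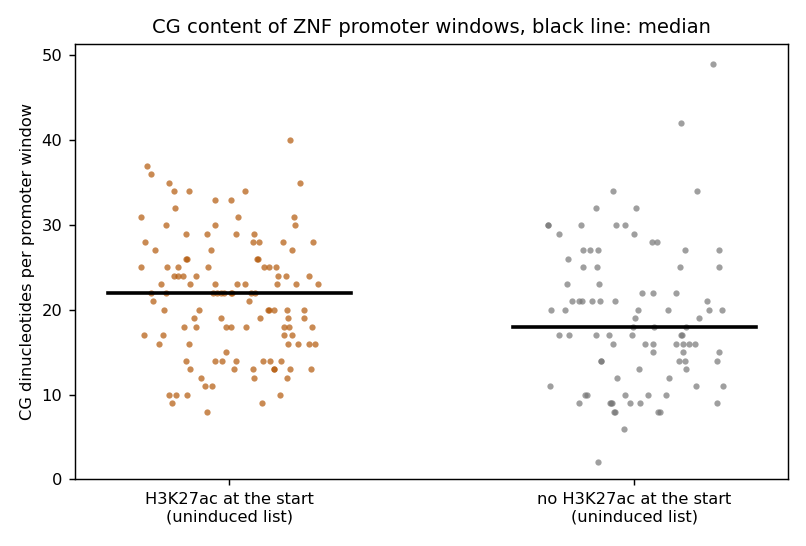
Each point is the number of CG dinucleotides in the 300-base promoter window of 1 member, for the 124 with H3K27ac at the start uninduced (left) and the 95 without it (right); horizontal lines mark the medians and points are spread sideways for visibility. The medians are 22 and 18, and the groups overlap over most of their range, with windows at another RefSeq start included.

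Short motifs were searched on both strands of the same windows. CCGGAAG, a core recognised by ETS factors, lay in 45.2% of member windows and in 14.1% of all windows. It was in 43.6% of members with H3K27ac at the start and 47.4% of those without, beside 19.7% and 4.10% of all genes. CCAAT lay in 53.9% of member windows and 36.4% of all windows. CTTTGAT, a core recognised by TCF and LEF factors, lay in 3 member windows (ZNF44, ZNF585B and ZNF799), 1.37%, beside 1.96% of all windows. GCATGCGC, a core recognised by NRF1, lay in 4.57% of member windows and 4.28% of all windows. ZNF91 and ZNF208 each held CCGGAAG and CCAAT, as did ZNF132, while ZNF582 held CCGGAAG alone and ZNF566 neither.

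A list of 8 members reported methylated in tumours (ZNF154, ZNF671, ZNF582, ZNF331, ZNF132, ZNF677, ZNF177 and ZNF382) had H3K27ac at none of its 8 starts in either condition. Over all scored members H3K27ac lay at 56.6% of starts uninduced and 56.2% induced, and over all genes at 64.2% and 64.1%. H3K27ac lay elsewhere in 1 of the 8, ZNF331, an imprinted gene, with 4 regions uninduced and 3 induced, all in the body. The strongest, at chr19:53543801-53548630, reached −log10 q 167.2 uninduced and 143.3 induced, and Pol II lay there at 66.6 and 22.1. Of the other 7 members of the list, only ZNF671 had a region, the weak Pol II call uninduced. Methylation was not analysed here, and the list was chosen with results of these data known.

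All of 18 listed corepressor and heterochromatin genes through which KRAB proteins act had H3K27ac and Pol II regions in both conditions. Over all protein-coding genes, 14084 of 19970 had both marks uninduced and 13817 induced. Of the 15 listed genes with a known strand, 14 had both marks at the start, and UHRF1, which guides maintenance methylation of DNA, had neither there. Over all genes with a known strand, 9713 of 15812 starts had both marks uninduced and 9625 induced. UHRF1 had regions in its body, reaching −log10 q 187.3 for H3K27ac and 146.9 for Pol II uninduced. TRIM28 (chr19:58544064-58550715), the corepressor bound by KRAB domains, had Pol II at a −log10 q of 404.8 and 40.3-fold enrichment uninduced, and 257.2 and 36.4-fold induced. SETDB1, the methyltransferase it recruits, had Pol II at 112.7 uninduced and 51.7 induced, lists whose medians at gene starts were 209.4 and 152.5. ZNF274, a member known to bring SETDB1 to other zinc finger genes, had H3K27ac at its start at 120.7 uninduced and 121.4 induced, and Pol II at 147.8 and 115.6.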

How the data were processed

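ChIP-seq of H3K27ac and Pol II in DLD1 cells was used, with 1 deposited peak list for both samples of each condition. Per the labels' protocols, sequencing was single-end, 75 bp long, with a depth of 40 to 55M for each sample. Names in the submitters' processing notes include BWA 0.7.17-r1188, SAMtools 1.10 and MACS2 2.1.1.20160309, and the builds hg19 and hg38. Positions were read as GRCh38, because chromosome 17 regions run to 83228308, which lies outside it in the older build. No source used here gives caller settings, pooling of samples or the treatment of reads with several matches. For every summit the authors deposited a −log10 q and a fold enrichment, which is a ratio to the local background. They describe regions within a list, and where those of both lists are printed no change is read from them. The lowest −log10 q deposited was 1.30. Reads were not counted here, so depth enters only through the lists, and more depth lists weaker regions.

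Summit rows of 1 region were collapsed to 1 region with its highest values, on the autosomes and X, giving 78005 and 79987 H3K27ac regions (uninduced and induced) and 57247 and 50665 Pol II regions. Regions overlapped a window when they shared at least 1 bp. RefSeq tables (GRCh38.p14) gave gene bounds, strand for 219 of 250 members, and promoter sequence. Starts were known only for the 15812 of 19970 genes in the promoter table. Filters for nearby starts therefore missed those of the other genes. Intervals are Wilson 95% intervals, which treat genes as independent although some members overlap one another. Members overlapping another protein-coding gene within 1 kb numbered 67, of which 49 overlapped another member. No column of values went unmatched (0). Python 3.11.15, pandas 2.3.3 and biopython 1.88 were used, and the overlap scripts were tested on simulated data against bedtools 2.31.1. Protein sequences were not analysed here.

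Members, lists and rules were chosen with earlier results of these data known. Named members are, per cluster, the highest −log10 q of H3K27ac at a start and the most covered by Pol II (of 5 kb or longer, uninduced). The 5 largest Pol II coverage differences each way and members listed in 1 condition only (up to 4 for each mark and direction) were named too. So were the 4 strongest Pol II ends and H3K27ac body regions, the members of the methylated list, TRIM28 and SETDB1. Alternatives were another −log10 q minimum, lists of equal length, other overlaps and windows, members without neighbours, and other cluster gaps. Others were added after the data were seen: any RefSeq start, ends without a nearby start, and body regions away from starts.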

Additional observations from a re-analysis of the deposited data

How the results depend on the processing

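No paired analysis was possible because 1 peak list stands for both samples of a condition, and for the same reason no replicate could be left out. Of 184 values recomputed for 31 results, 160 stayed within 1.5 times the main value in either direction and 24 moved. Only the median coverage differences could reverse in sign, since the other results are counts, and 0 did. For the 24 values that moved the cause was not tested. H3K27ac at the end was found at 10 members uninduced with a summit in the window, without members overlapping another gene (10 induced), or without another start near the end (11 induced). H3K27ac in the body was found at 64 members in each condition with a summit in the body, at 57 uninduced and 58 induced with a window of 2 kb, and at 27 and 29 for regions away from RefSeq starts, where Pol II uninduced was found at 68. Among members listed in 1 condition only, a −log10 q of at least 5 gave 3 for H3K27ac uninduced and 0 for Pol II in each condition, and a window of 2 kb gave 0 for H3K27ac induced. For Pol II uninduced only, lists of equal length gave 0, and a summit in the window, a window of 500 bp or leaving out overlapping members gave 1 each. The median coverage difference became 0.0012 points for H3K27ac and −0.67 for Pol II at a −log10 q of at least 5, and 0.13 for H3K27ac without overlapping members, where 1 member was called lower for Pol II. Gaps of 250 kb and 1 Mb kept the number of clusters within 1.5 times. Depth limits absence: an unmarked member had no region past the authors' threshold in lists from 40 to 55M reads per sample, and weaker signal was not detectable.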
